A study of Mus musculus with 6 samples.

Results

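S100 genes encode small calcium-binding proteins. The 9 members described here are S100a8, S100a9, S100a1, S100a3, S100a4, S100a6, S100a10, S100a11 and S100a13, taken by symbol, and all 9 had a row among the 24391 rows of a read count table and among the 23284 rows of an FPKM table (fragments per kilobase of transcript and scaled to sequencing depth). RNA came from tumour-associated macrophages, the macrophages found inside a tumour, of colorectal tumours in BALB/C mice, sorted by the surface proteins CD11b and F4/80. In the gate high for CD11b and low for F4/80, called F4/80low, 2 libraries came from CCL5-/- mice, which lack the chemokine gene Ccl5, and 2 from wild-type (WT) mice. In the gate low for CD11b and high for F4/80, called F4/80hi, 1 library was labelled CCL5-/- and 1 WT. The labels give no age and do not tie replicates to single mice, so the spread behind each p-value is that between these libraries and may be technical.

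The F4/80low libraries held between 9280635 and 22411342 counts. Rn45s, the ribosomal RNA precursor, took 50.03% and 1.38% of them in CCL5-/- replicates 1 and 2, and 58.4% and 0.844% in WT replicates 1 and 2, so replicate number and ribosomal RNA share cannot be told apart. Ccl5 itself had 35 and 82 reads in CCL5-/- replicates 1 and 2, against 255 and 3976 in WT replicates 1 and 2. In the F4/80hi libraries it went against the labels, with 145 FPKM under the label CCL5-/- and 15.7 FPKM under the label WT, and the sample titles name the other genotype for each. The F4/80hi FPKM also tracked F4/80low replicate 1. The FPKM ratio of each gene was used to predict how its reads split between 2 F4/80low libraries. With WT replicate 1 in the place of the library labelled CCL5-/- and CCL5-/- replicate 1 in that of the library labelled WT, the median chi-square was 0.335 over 6677 genes with 20 to 400 reads, under the 0.455 of independent reads. The other 11 ordered pairs of libraries gave medians of 3.57 to 8.90. The series is therefore counted here as 4 libraries, and the F4/80hi values are not a repeat of the F4/80low ones.

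S100 proteins bind calcium through EF-hand loops, mostly act as dimers, and on binding calcium expose a surface that docks onto target proteins. S100a8 and S100a9 pair as calprotectin, the main cytosolic protein of neutrophils and an abundant one of monocytes, which sequesters zinc and manganese from microbes and, when released, signals through the receptors TLR4 and RAGE. The other members work mainly inside cells, on annexins, myosin and the cytoskeleton.

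All 9 genes lie on mouse chromosome 3 (GRCm38), in 2 groups. The first held S100a1 (minus strand, 90511034 to 90514392), S100a13 (plus, 90514435 to 90524581), S100a3 (plus, 90560578 to 90602702), S100a4 (plus, 90603771 to 90606045), S100a6 (plus, 90612882 to 90624181), S100a8 (plus, 90668978 to 90670035) and S100a9 (minus, 90692632 to 90695721), over 185 kb. S100a11 (plus, 93520488 to 93526287) and S100a10 (plus, 93555080 to 93564643) lay 2825 kb further on. S100a8 and S100a9 were separated by 22597 bases. S100a1 and S100a13 stood head to head, 43 bases apart, and no source used here says whether reads were counted by strand. The annotation tags S100a3 and S100a4 each as an overlapping locus, although their spans given here do not overlap each other. Whether either shared reads with another locus was not tested.

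The promoter windows of S100a8, S100a9, S100a4 and S100a11 are shown to set the calprotectin genes beside abundant members with TATAAA (S100a4) and without it (S100a11). Each is RefSeq sequence of GRCm38.p6, 250 bases before to 50 after a gene's start, 5′ to 3′ on the gene's own strand, with TATAAA in capitals. The windows are chr3:90668821-90669120 (plus) for S100a8, chr3:90695672-90695971 (minus) for S100a9, chr3:90603520-90603819 (plus) for S100a4 and chr3:93520246-93520545 (plus) for S100a11.
S100a8: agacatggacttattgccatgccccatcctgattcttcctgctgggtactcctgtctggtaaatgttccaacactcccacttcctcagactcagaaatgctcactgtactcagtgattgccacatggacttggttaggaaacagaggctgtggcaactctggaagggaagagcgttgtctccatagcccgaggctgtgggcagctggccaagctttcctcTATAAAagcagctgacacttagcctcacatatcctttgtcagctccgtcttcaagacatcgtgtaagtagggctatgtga
S100a9: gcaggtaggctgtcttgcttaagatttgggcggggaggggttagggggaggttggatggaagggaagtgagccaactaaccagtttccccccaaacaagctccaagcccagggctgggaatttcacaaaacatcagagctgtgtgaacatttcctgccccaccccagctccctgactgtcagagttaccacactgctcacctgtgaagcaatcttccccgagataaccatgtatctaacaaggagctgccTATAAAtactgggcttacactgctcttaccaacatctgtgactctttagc
S100a4: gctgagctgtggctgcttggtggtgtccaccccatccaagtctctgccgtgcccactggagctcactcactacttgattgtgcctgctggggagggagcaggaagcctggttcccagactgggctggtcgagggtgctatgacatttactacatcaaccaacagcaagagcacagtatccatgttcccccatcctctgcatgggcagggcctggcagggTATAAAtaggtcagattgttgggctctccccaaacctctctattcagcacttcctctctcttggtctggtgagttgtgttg
S100a11: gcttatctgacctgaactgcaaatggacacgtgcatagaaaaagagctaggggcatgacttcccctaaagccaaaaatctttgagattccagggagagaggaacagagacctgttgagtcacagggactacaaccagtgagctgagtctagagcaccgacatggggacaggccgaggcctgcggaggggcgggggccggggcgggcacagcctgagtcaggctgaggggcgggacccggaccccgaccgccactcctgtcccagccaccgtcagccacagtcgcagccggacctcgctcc
TATAAA was searched on both strands, and 4 of the members' 11 windows held it, 1 each of S100a3, S100a4, S100a8 and S100a9, against 13.6% of all 32851 windows. It began at -30 in S100a8, at -31 in S100a4 and at -52 in 1 of the 4 windows of S100a3, counted from the RefSeq start. In S100a9 it began at the RefSeq start itself, but the S100a9 locus of the FPKM table starts 30 bases downstream of that point. Its distance thus depends on which start is used. The C/EBP letters TTGCNNAA were found in 1 of the members' 11 windows, that of S100a9, against 10.8% of all windows. The PU.1 letters GAGGAA were found in 4 of the 11, 1 each of S100a3, S100a4, S100a8 and S100a11, against 28.3% of all windows. In S100a8 the reverse complement of GAGGAA stood directly before TATAAA without overlapping it.

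S100a8 and S100a9 had their highest level in WT replicate 1 and their lowest in CCL5-/- replicate 2. S100a8, the smaller calprotectin chain, had 150 and 80.9 CPM in CCL5-/- replicates 1 and 2, against 973 and 102 CPM in WT replicates 1 and 2 (CPM, reads scaled to library size with TMM factors). The groups overlapped, because CCL5-/- replicate 1 lay above WT replicate 2. The log2 difference, CCL5-/- minus WT, was -2.22 (SE 1.08, edgeR quasi-likelihood adjusted p = 1.0). S100a9, the larger chain, had 358 and 197 CPM in CCL5-/- replicates 1 and 2, against 1834 and 366 CPM in WT replicates 1 and 2. Both CCL5-/- libraries were below both WT libraries, by a narrow margin between CCL5-/- replicate 1 and WT replicate 2. The log2 difference of S100a9 was -1.99 (SE 0.88, edgeR adjusted p = 1.0).

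The size of both differences came mostly from 1 library. Within replicate 1, S100a8 was 6.47-fold and S100a9 5.12-fold lower in CCL5-/- (log2 differences -2.69 and -2.36). Within replicate 2 S100a8 was 1.26-fold and S100a9 1.86-fold lower in CCL5-/- (log2 differences -0.33 and -0.89). They were the 2 members at least 2-fold lower in CCL5-/- within replicate 1, against 5.03% of the 12710 genes tested, and 0 members were at least 2-fold higher, against 3.95%. Within replicate 2, 0 members were at least 2-fold lower, against 5.72%, or higher, against 1.38%. A lower level in both pairs, whatever its size, was found in 26.9% of genes. Without WT replicate 1 the log2 difference of S100a9 was -0.39 and that of S100a8 turned to 0.19. The samples are bulk RNA, in which fewer cells of a type and less RNA per cell cannot be told apart.

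No member passed an adjusted p of 0.05 between the genotypes in edgeR, and percent called over all genes was 0% (0 of 12710 genes, with 41 genes, 0.323%, at an unadjusted p under 0.05). Ccl5, the deleted gene, did not pass in this fit either (log2 difference -4.64, SE 0.69, edgeR unadjusted p = 0.000762). A gene that does not pass is therefore not shown to be unchanged. DESeq2 called 1 gene, 0.00556% of its 18000, and limma-voom called 0 genes, none of them an S100 gene. Of the 9 members, 1 (S100a9) was lower in every CCL5-/- library than in every WT library, against 8.24% of the genes tested, and 0 were higher in every CCL5-/- library, against 8.36% (16.6% for either direction). With replicate number as a block, edgeR called 0 members (0.0787% of genes, all lower), and S100a9 was the 1 member called lower by DESeq2 (0.188% lower, 0.196% in all) and by limma-voom (0.33% lower, 0.37% in all). In the authors' deposited table, S100a8 had a log2 fold change of -0.62 (SE 0.26, p = 0.0159, adjusted p = 1.0). The authors' deposited table gave S100a9 a log2 fold change of -0.70 (SE 0.27, p = 0.00999, adjusted p = 1.0), and how its changes were scaled is not stated in any source used here.

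**Figure D1:**
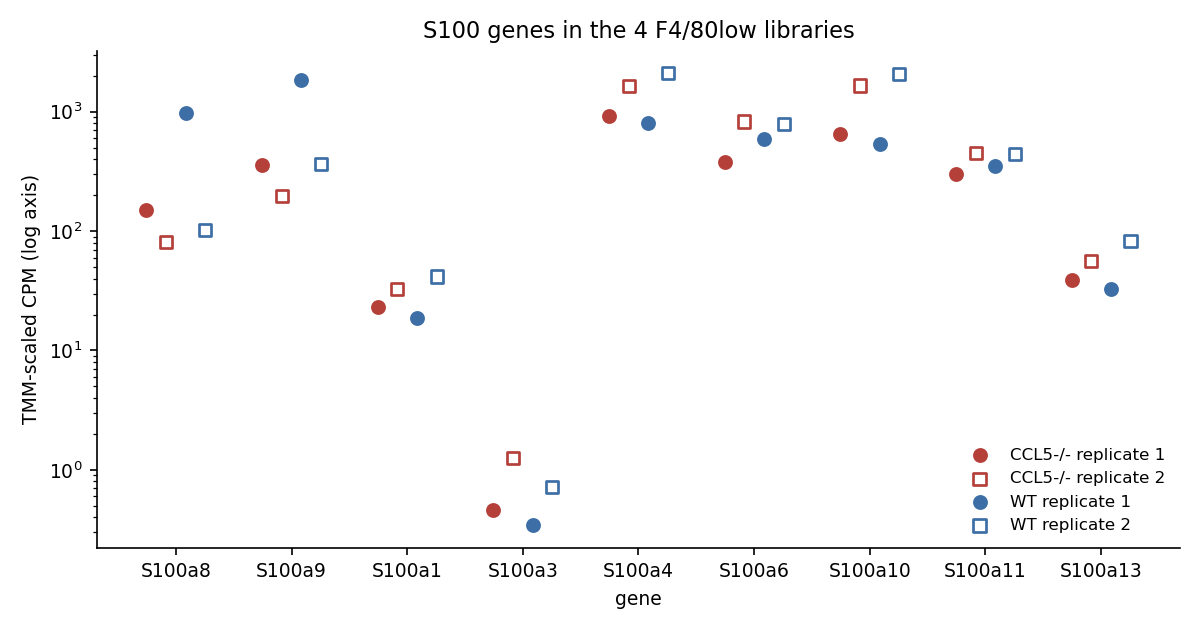
CPM on a log axis for each S100 gene in the 4 F4/80low libraries (red, CCL5-/-; blue, WT; filled circles, replicate 1; open squares, replicate 2). S100a8 and S100a9 stand highest in WT replicate 1, at 973 and 1834 CPM, while each of the other 7 genes is higher in both replicate 2 libraries than in both replicate 1 libraries.

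The balance between the calprotectin chains varied less than their joint share of the members' reads. There were 2.38 and 2.44 S100a9 reads per S100a8 read in CCL5-/- replicates 1 and 2, against 1.89 and 3.60 in WT replicates 1 and 2. Together they made up 18.1% (95% Wilson interval 17.6% to 18.5%) and 5.60% (5.48% to 5.73%) of the reads of the 9 members in CCL5-/- replicates 1 and 2. In WT replicates 1 and 2 they made up 54.7% (54.1% to 55.3%) and 7.81% (7.69% to 7.93%). These intervals cover counting error only. The share in WT replicate 1 stood apart from the other 3 libraries, and within each replicate number the share was lower in CCL5-/-.

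The other 7 members had smaller log2 differences than S100a8 and S100a9, and 6 of the 7 were negative, as were 51.9% of all genes tested. S100a4, a protein that binds non-muscle myosin and is studied in cell migration and metastasis, had 914 and 1656 CPM in CCL5-/- replicates 1 and 2, against 799 and 2096 CPM in WT replicates 1 and 2. S100a10, the partner of annexin A2 in a cell-surface plasminogen receptor and a member that has lost calcium binding, had 653 and 1660 CPM in CCL5-/- replicates 1 and 2, against 532 and 2075 CPM in WT replicates 1 and 2. For both genes the 2 WT libraries lay outside the 2 CCL5-/- libraries on either side, and both log2 differences were -0.17 (SE 0.69 for S100a4 and 0.85 for S100a10, edgeR adjusted p = 1.0). S100a6, or calcyclin, which binds the ubiquitin-ligase adaptor Cacybp, had 376 and 828 CPM in CCL5-/- replicates 1 and 2, against 592 and 785 CPM in WT replicates 1 and 2. S100a11, which binds annexin A1, had 302 and 448 CPM in CCL5-/- replicates 1 and 2, against 349 and 445 CPM in WT replicates 1 and 2. For these 2 genes the CCL5-/- libraries lay on either side of the WT libraries, with log2 differences of -0.19 (SE 0.58) and -0.08 (SE 0.47).

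S100a13, which takes part in the release of FGF1 and interleukin 1 alpha without a signal peptide, had 38.8 and 56.6 CPM in CCL5-/- replicates 1 and 2, against 32.8 and 82.3 CPM in WT replicates 1 and 2. S100a1, best known as a calcium-handling regulator in heart muscle, had 23.1 and 32.6 CPM in CCL5-/- replicates 1 and 2, against 18.6 and 41.6 CPM in WT replicates 1 and 2. In both genes WT again held the lowest and the highest library, and the log2 differences were -0.27 (SE 0.54) and -0.12 (SE 0.50). S100a3, known from the hair cuticle, was near the detection limit, with 4 and 34 reads in CCL5-/- replicates 1 and 2 and 2 and 22 reads in WT replicates 1 and 2. Its log2 difference was 0.63 (SE 0.90). The 7 log2 differences ranged from -0.27 to 0.63 with a median of -0.17, beside -0.01 over all genes tested. Within replicate 1 their median was 0.24, with 2 of 7 lower in CCL5-/-, and within replicate 2 it was -0.32, with 4 of 7 lower. For 6 of the 7 the pairs had opposite signs, against 48.5% of all genes.

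S100a8 and S100a9 were set against the mean log2 CPM of the other 7 members in the same library, which removes any factor common to all members. The mean gives S100a3, with 2 to 34 reads, the same weight as the abundant members, and these CPM are not scaled by gene length. Whether a gene lies above or below the mean in 1 library therefore depends on the members averaged. S100a8 stood 0.85 above and 0.96 below that mean in CCL5-/- replicates 1 and 2 (log2 gaps 0.85 and -0.96), against 3.63 and -0.72 in WT replicates 1 and 2. S100a9 had gaps of 2.1004 and 0.33 in CCL5-/- replicates 1 and 2, against 4.55 and 1.13 in WT replicates 1 and 2. The gap of S100a8 averaged -0.06 ± 1.28 in CCL5-/- and 1.46 ± 3.08 in WT (SD, n = 2 each), and that of S100a9 1.21 ± 1.25 in CCL5-/- and 2.84 ± 2.42 in WT. The differences, -1.51 and -1.62, were smaller than the SD in WT, the groups overlapped for both genes, and the smallest exact permutation p that 2 against 2 libraries allow is 0.333. The gap was lower in CCL5-/- within both replicate numbers, by -2.78 and -0.24 for S100a8 and by -2.45 and -0.80 for S100a9 in replicates 1 and 2. Against the median of the other members in place of the mean, the differences were -1.42 for S100a8 and -1.53 for S100a9. Without WT replicate 1 the differences from the mean turned to 0.67 for S100a8 and 0.09 for S100a9.

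**Figure D2:**
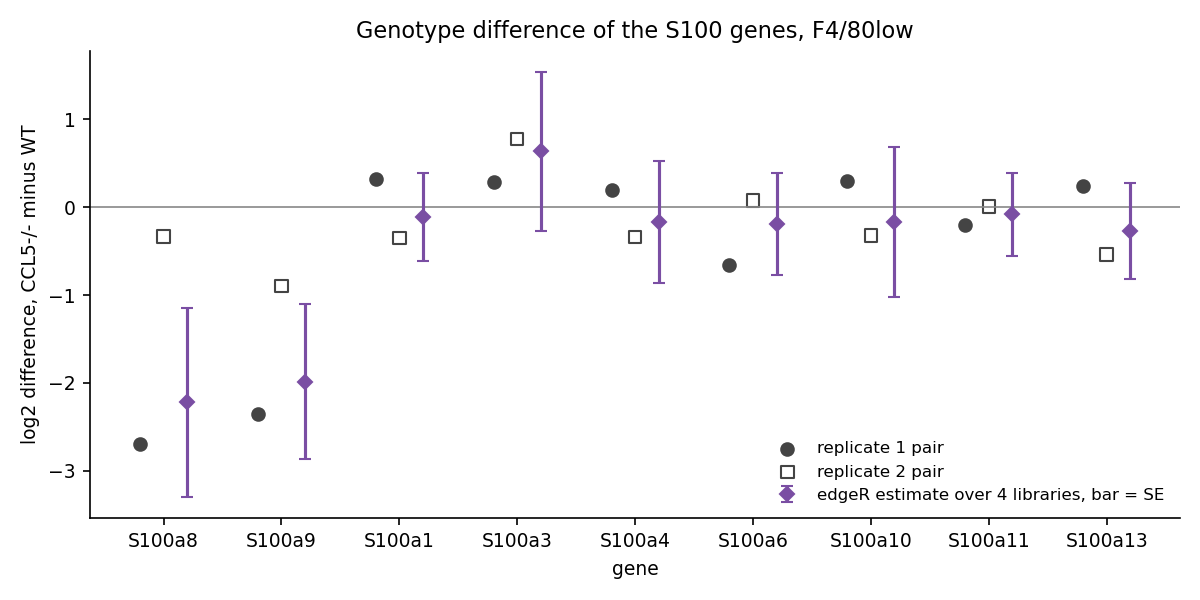
Log2 difference, CCL5-/- minus WT, of each S100 gene within replicate 1 (filled circles), within replicate 2 (open squares) and from edgeR over the 4 F4/80low libraries (purple diamonds, bars are the standard error). S100a8 and S100a9 lie below 0 in both pairs, at -2.69 and -2.36 in replicate 1, while 6 of the other 7 genes have pairs on either side of 0.

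Levels of different genes are compared per kilobase of annotated exon. On this CPM-per-kb scale S100a4 led in 3 libraries, at 1836 and 3325 in CCL5-/- replicates 1 and 2 and 4210 in WT replicate 2. In WT replicate 1 S100a9 led at 3514, followed by S100a8 at 2001 and S100a4 at 1605. S100a10 came second in the 3 libraries that S100a4 led, at 814 and 2070 in CCL5-/- replicates 1 and 2 and 2587 in WT replicate 2. S100a9 stood at 686 and 377 in CCL5-/- replicates 1 and 2 and at 702 in WT replicate 2, and S100a8 at 309, 166 and 210 in the same libraries. S100a6 and S100a11 exchanged places between libraries, with ranges of 465 to 1024 and 591 to 877. S100a13 (45.9 to 115), S100a1 (26.7 to 60.0) and S100a3 (0.384 to 1.40) came last in that order in every library. Across the 4 libraries the CPM of S100a8 spanned 12.03-fold and that of S100a9 9.31-fold, against 1.48-fold for S100a11 to 3.90-fold for S100a10 among the other members. The ranking of genes per kb depends on the exon lengths used. In CCL5-/- replicate 1 S100a8 lay below S100a6 (309 against 465), but above it in the FPKM labelled WT that track that library (1236 against 809). In the FPKM labelled CCL5-/-, which track WT replicate 1, S100a8 was close to S100a9 (8045 against 8344).

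More members passed the test by replicate number than by genotype. Replicate 2 minus replicate 1, with genotype in the edgeR fit, passed an adjusted p of 0.05 for 6 of the 9 members, against 31.8% of the genes tested (13.9% higher and 18% lower in replicate 2). S100a10 rose most, averaging 1867 CPM in replicate 2 and 592 CPM in replicate 1 (log2 difference 1.65, SE 0.28, adjusted p = 0.000522). S100a4 averaged 1876 CPM in replicate 2 and 857 CPM in replicate 1 (1.12, SE 0.28, adjusted p = 0.00665). S100a13, S100a1 and S100a6 also rose, by 0.93, 0.82 and 0.77 on the log2 scale. S100a9 fell, averaging 282 CPM in replicate 2 and 1096 CPM in replicate 1 (-1.59, SE 0.35, adjusted p = 0.00537). S100a8 averaged 91.4 CPM in replicate 2 and 561 CPM in replicate 1, a difference that did not pass (-2.08, SE 0.75, adjusted p = 0.137). S100a11 (0.46, adjusted p = 0.162) and S100a3 (1.27, adjusted p = 0.268) did not pass either. With replicate number as the only term the call of S100a9 was lost at a larger difference (-1.96, adjusted p = 0.286). S100a8 passed in edgeR without the filter on low counts (-1.99, adjusted p = 5.24e-05) and in limma-voom (-2.01, adjusted p = 0.000231). The share of Rn45s moved with replicate number, and its part in these differences was not tested.

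**Figure D3:**
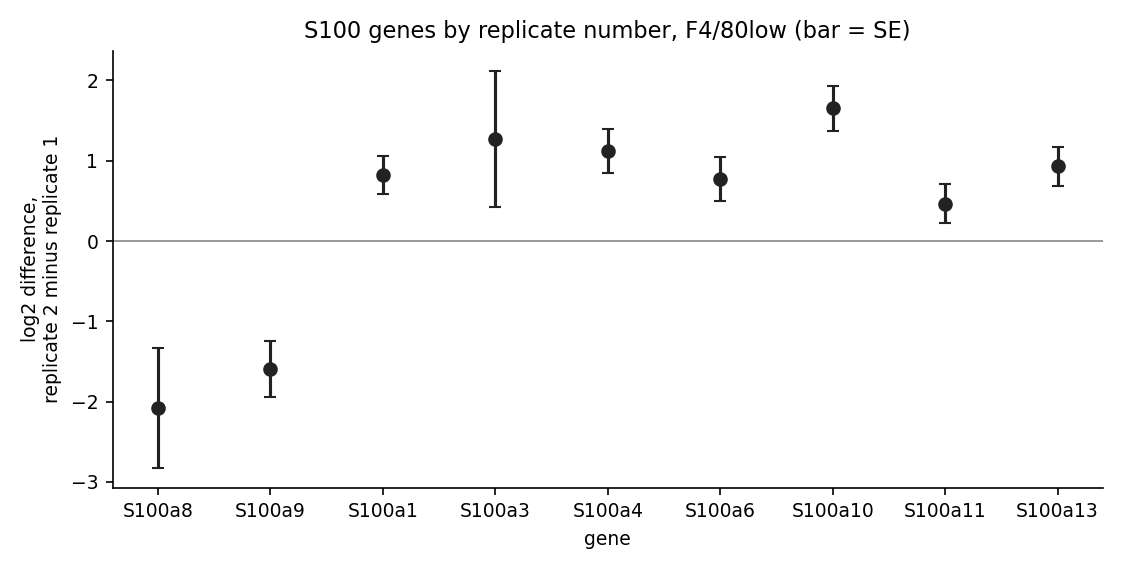
Log2 difference, replicate 2 minus replicate 1, of each S100 gene from the edgeR fit with genotype (points, bars are the standard error). S100a8 and S100a9 lie below 0, at -2.08 and -1.59, and the other 7 genes lie above it, between 0.46 and 1.65.

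In the FPKM of the F4/80hi libraries, S100a8 and S100a9 were higher in the library labelled CCL5-/-. S100a8 had 8045 FPKM under the label CCL5-/- (authors' bounds 1491 to 14599.5) and 1236 FPKM under the label WT (453 to 2019.7). S100a9 had 8344 FPKM under the label CCL5-/- (382 to 16306) and 1487 FPKM under the label WT (464 to 2511). On the log2(FPKM + 1) scale the differences were 2.70 and 2.49, and S100a9 and S100a8 took ranks 4 and 5 of all FPKM rows in the library labelled CCL5-/-, against ranks 84 and 95 in the library labelled WT. The other 7 members differed by -0.47 (S100a1) to 0.58 (S100a6). Thus 2 of 9 members were at least 2-fold higher in the library labelled CCL5-/-, against 2.35% of the 11670 genes with at least 1 FPKM in either library, and 0 were at least 2-fold lower, against 1.58%, and the authors' bounds overlapped for all 9. With 1 library per label there is no replicate check and no p-value. Set beside F4/80low WT replicate 1 minus CCL5-/- replicate 1, whose reads these FPKM track, the sign was the same for 8 of the 9 members, the other being S100a3.

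**Figure D4:**
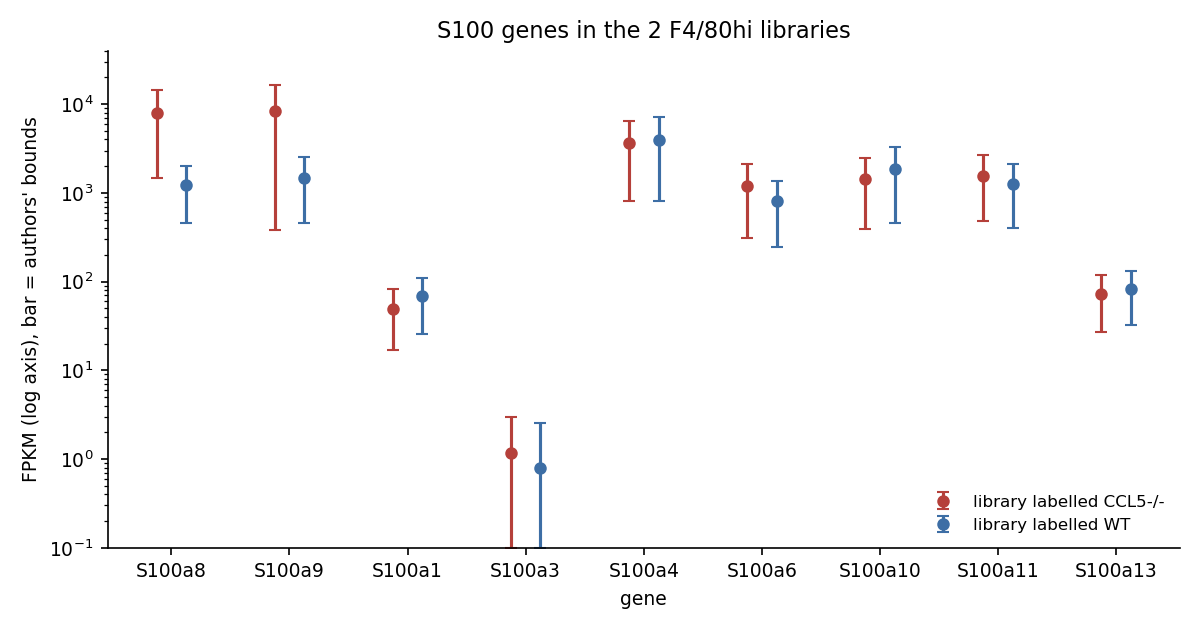
FPKM on a log axis of each S100 gene in the F4/80hi library labelled CCL5-/- (red) and the one labelled WT (blue), with bars for the authors' bounds, cut at the lower end of the axis for S100a3. S100a8 and S100a9 are at 8045 and 8344 FPKM for the label CCL5-/- and at 1236 and 1487 FPKM for the label WT, with overlapping bars.

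The genes whose pattern over the 4 F4/80low libraries lay closest to S100a8 and S100a9 were sought among 3668 genes, by the root mean square difference of centred log2 CPM. Hdc, the histidine decarboxylase that makes histamine, was the nearest gene outside the 9 members to both, at 0.32 from S100a8 and 0.37 from S100a9, and S100a8 and S100a9 lay 0.33 apart. Hdc had 67.4 and 22.0 CPM in CCL5-/- replicates 1 and 2, against 249 and 34.5 CPM in WT replicates 1 and 2. Next to S100a8 came Csf3r, the receptor of the neutrophil growth factor G-CSF (0.47), Il1r2, a decoy receptor of interleukin 1 (0.54), Trem1, an activating receptor of myeloid cells (0.60), and Pik3ap1 (0.64). Next to S100a9 came G0s2 (0.44), the secreted protease inhibitor Slpi (0.50), Mxd1 (0.50) and Cd24a (0.50). Every other member lay further away, at 1.32 to 2.14 from S100a8 or S100a9. These distances rest on 4 libraries and describe them only.

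The summed level of neutrophil markers had the same order over the libraries as S100a9, but that order rested on Clec4e and Clec4d. Of 29 such genes with a row, 24 were tested, and all 24 had a negative log2 difference, with a median of -2.14 beside -0.01 over all genes, while 0 passed the test with genotype alone. Within replicate 1 the median was -2.34 and within replicate 2 -0.96, with 22 of 24 lower in CCL5-/- in both (26.9% of all genes), and 6 of 24 were lower in every CCL5-/- library than in every WT library, against 8.24% of all genes. With replicate number as a block edgeR called 4 of the 24, Camp, Stfa2l1, Olfm4 and Il1f9, all lower in CCL5-/-, of 10 genes called in all (0.0787%). Their summed level was 1209 and 609 CPM in CCL5-/- replicates 1 and 2, against 2662 and 1370 CPM in WT replicates 1 and 2, and 4 of the genes with a row were at 0 in at least 1 library. The list's most abundant genes, Clec4e, Clec4d and Trem1, are receptors that macrophages express too, and they supplied much of that sum. Clec4e had 723 CPM in WT replicate 2 against 429 CPM in CCL5-/- replicate 1, and Clec4d 368 against 246 CPM. Trem1 (58.5 against 145 CPM), Mmp9 (62.4 against 93.6 CPM) and Hdc (34.5 against 67.4 CPM), among others, went the other way. Without Clec4e and Clec4d the sum was higher in CCL5-/- replicate 1 than in WT replicate 2. The granule genes Camp and Ngp, which maturing neutrophils make and which were chosen after their values were seen, had fewer reads. Camp had 4 and 6 reads in CCL5-/- replicates 1 and 2, against 63 and 54 reads in WT replicates 1 and 2. Ngp had 41 and 53 reads in CCL5-/- replicates 1 and 2, against 538 and 140 reads in WT replicates 1 and 2. The part of neutrophils in the levels of S100a8 and S100a9 was not tested.

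Monocyte markers, among them Fn1, Plac8 and Nr4a1, had a median log2 difference of -0.39 over 16 genes and summed to 3242 and 1635 CPM in CCL5-/- replicates 1 and 2, against 4236 and 1710 CPM in WT replicates 1 and 2. Macrophage markers, led by Lyz2, Cd14 and Apoe, had a median of -0.21 over 15 genes. They summed to 6809 and 6704 CPM in CCL5-/- replicates 1 and 2, against 5956 and 10579.5 CPM in WT replicates 1 and 2. Over the 4 libraries, levels within this list ran from 0 for Marco and 1.95 to 14.8 CPM for Mertk, through 35.3 to 53.7 CPM for Adgre1, up to 2115 to 5351 CPM for Lyz2. The sum thus rests mostly on its most abundant genes. The monocyte sum was highest where S100a8 and S100a9 were, in WT replicate 1. The macrophage sum was lowest there through Lyz2 alone, since without it the list summed to 3649.5 and 3671 CPM in CCL5-/- replicates 1 and 2, against 3841 and 5228 CPM in WT replicates 1 and 2. Epithelial markers, mostly Krt20, summed to 119 and 110 CPM in CCL5-/- replicates 1 and 2, against 184 and 108 CPM in WT replicates 1 and 2, and fibroblast markers to 853 and 1297 CPM in CCL5-/- against 1061 and 1099.97 CPM in WT. T and NK cell markers summed to 201 and 189 CPM in CCL5-/- replicates 1 and 2, against 119 and 432 CPM in WT replicates 1 and 2. The part of these cells in the S100 levels was not tested, and 0 genes of these lists passed the test with genotype alone, while the block in edgeR called Hp of the monocyte list (log2 difference -1.60, adjusted p = 0.0237) and Dcn of the fibroblast list (-1.49, adjusted p = 0.0237), both named for that call.

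**Figure D5:**
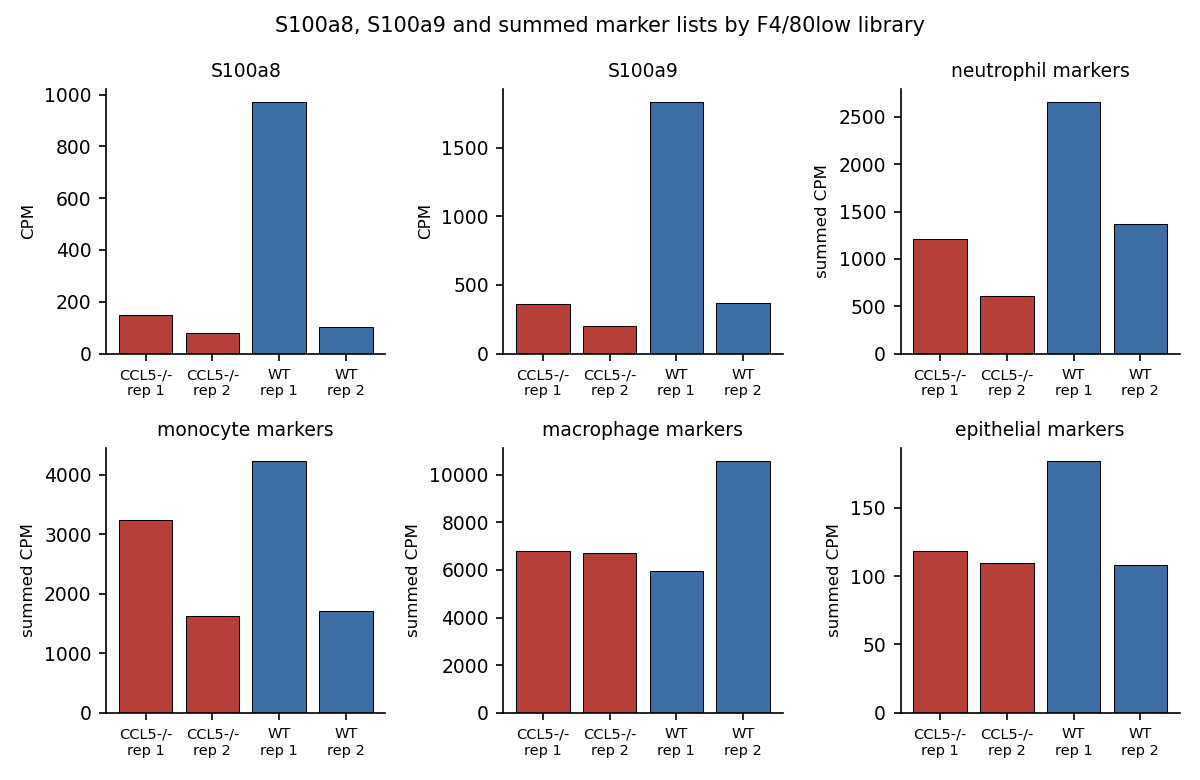
CPM of S100a8 and S100a9 and summed CPM of 4 marker lists in the 4 F4/80low libraries (bars, 1 per library; red, CCL5-/-; blue, WT). WT replicate 1 is the highest bar for S100a8, S100a9 and the neutrophil, monocyte and epithelial lists, and the lowest for the macrophage list, where Lyz2 sets the order.

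Of 10 tested cell surface receptors, among them reported S100 receptors, 9 had a negative log2 difference, against 51.9% of all genes tested. Their median was -0.49 and 0 passed the test. Ager, the gene of RAGE, also chosen after its values were seen, was not tested. It had 7 and 5 reads in CCL5-/- replicates 1 and 2, against 3 and 13 reads in WT replicates 1 and 2. Tlr4, the receptor of released calprotectin, chosen after its values were seen, had 62.7 and 20.8 CPM in CCL5-/- replicates 1 and 2, against 63.6 and 23.2 CPM in WT replicates 1 and 2, and so differed by replicate number and little by genotype. Mcam, an adhesion molecule reported to bind S100a8 and S100a9, had 7 and 27 reads in CCL5-/- replicates 1 and 2, against 31 and 40 reads in WT replicates 1 and 2 (log2 difference -1.80, SE 0.85). The formyl peptide receptors had log2 differences of -1.93 (Fpr1, SE 1.03) and -0.77 (Fpr2, SE 0.37). Fpr2 and Mcam were the 2 of 10 receptors lower in every CCL5-/- library than in every WT library, against 8.24% of all genes. Genes known to regulate S100a8 and S100a9 or their cells gave a median of -0.18 over 16 genes, with 12 lower and 0 called, and intracellular partners of S100 proteins a median of -0.20 over 20 genes, with 16 lower and 0 called. Lower in both pairs were 7 of the 10 receptors, 7 of the 16 regulators and 6 of the 20 partners, against 26.9% of all genes. Of 9 S100-named genes with a row that are not members, 4 were tested, with log2 differences of 0.46 (S100a7a), 0.29 (S100a16), 0.04 (S100a14) and -0.14 (S100pbp), and none passed.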

How the data were processed

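Genotype and gate were taken from the labels' characteristics. Trizol was used to extract RNA and an Illumina TruSeq kit to make libraries, per the labels' protocols. The authors deposited raw read counts for F4/80low, FPKM with lower and upper bounds for F4/80hi, and a comparison table holding the authors' log2 fold changes, standard errors and p-values. The submitters' processing notes name bcl2fastq 2.17.1.14, FastQC, cutadapt, STAR, HTSeq, DESeq2, TopHat2 2.1.1 and Cufflinks 2.2.1. Which tool and build made which table, and whether counting used strand, is not stated in any source used here. Loci of the FPKM table overlapped the GRCm38 genes of GENCODE M21 for 99.1% of shared symbols.

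Counts were tested over 12710 genes with the two-sided quasi-likelihood F test of edgeR 4.0.16 (R 4.3.3; low counts removed by filterByExpr, TMM scaling, Benjamini-Hochberg adjustment at 0.05). The genotype fit held the 4 F4/80low libraries with genotype alone, and a second one added replicate number. Standard errors are |log2 difference| over the root of the F statistic. The count tests were first tested on simulated counts. Alternatives were DESeq2 1.42.0, limma 3.58.1 (voom), no filter, a replicate block, leaving out each library and, chosen after seeing the data, each replicate pair alone. FPKM were compared as log2(FPKM + 1) where either library reached an FPKM of 1. Their depth is unknown.

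The members and gene lists were chosen with earlier results of these data known. Besides all members, the genes named were up to 4 per functional list by smallest unadjusted p, up to 3 per marker list by highest mean CPM, and the 5 nearest patterns. Promoter windows came from RefSeq and matched 8 of the 9 members.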

Additional observations from a re-analysis of the deposited data

Results flagged for a closer look

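S100a8 and S100a9 stood out because their F4/80hi difference, read by the genotype labels, ran opposite to both F4/80low pairs. In F4/80hi, the library labelled CCL5-/- exceeded the library labelled WT by 2.70 for S100a8 and 2.49 for S100a9 on the log2(FPKM + 1) scale. In F4/80low the log2 differences, CCL5-/- minus WT, were -2.69 and -0.33 for S100a8 and -2.36 and -0.89 for S100a9 within replicates 1 and 2. Read by the sample titles, the F4/80hi differences are -2.70 and -2.49, in the direction of both pairs. Ccl5 goes against the labels, and the F4/80hi values track the reads of F4/80low replicate 1, with the library labelled CCL5-/- matching WT replicate 1. A difference between the gates cannot be tested with values that track the same reads, and the direction of the F4/80hi difference rests on the labels.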

How the results depend on the processing

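Replicate numbers are shared by the genotypes, but the labels do not say that they mark a shared mouse or day. Deviations from the group means correlated at 0.73 between the replicate 1 libraries. With 2 libraries per genotype the value for replicate 2 is the same by construction. The first principal component, with 76.0% of the variance, separated the numbers. With a replicate block, edgeR called 0 members and 10 genes in all (0.0787%, all lower in CCL5-/-), with S100a9 at -1.63 (adjusted p = 0.170) and S100a8 at -1.51 (adjusted p = 0.930). DESeq2 with the block called 1 member, S100a9 (-1.61, adjusted p = 0.00056), among 23 genes, and limma-voom with the block also called 1, S100a9 (-1.64, adjusted p = 0.00961), among 47 genes. Without the block DESeq2 called 1 gene. Leaving out 1 library at a time gave 0 to 4 genes.

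S100a9 stayed below 0 under every alternative run, at -2.73 to -0.39 when 1 library was left out. S100a8 was at -3.08 to 0.19, above 0 only without WT replicate 1. The gap to the other members ranged, over the same procedure, from -3.69 to 0.67 for S100a8 and from -3.33 to 0.089 for S100a9. Among the other members the same procedure gave -0.56 to 0.59 for S100a1, -0.29 to 1.35 for S100a3, -0.69 to 0.68 for S100a4, -0.88 to 0.31 for S100a6, -0.9999 to 1.12 for S100a10, -0.40 to 0.22 for S100a11 and -0.77 to 0.54 for S100a13. S100a10 turned to 0.075 with limma-voom, and to 0.0042 and 0.040 with the block in DESeq2 and limma-voom. In replicate 1 alone S100a1 (0.32), S100a4 (0.19), S100a10 (0.29) and S100a13 (0.24) turned positive, and in replicate 2 alone S100a6 (0.076) and S100a11 (0.0098). The cause was not tested. With 2 libraries per genotype, 2 of them with few reads outside Rn45s, only large differences can be told from the spread, and S100a3 rests on 2 to 34 reads.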

Other observations

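S100a10 and its partner Anxa2 form a heterotetramer at the cell membrane, and both were abundant in these libraries (Anxa2 and Anxa1 are named after their values were seen). Anxa2 had 1097 and 1365 CPM in CCL5-/- replicates 1 and 2, against 989 and 1247 CPM in WT replicates 1 and 2, a log2 difference of 0.14 (SE 0.51, edgeR adjusted p = 1.0). Its levels spanned less than those of S100a10, whose lowest and highest libraries differed 3.90-fold. Anxa1, which S100a11 binds, had 783 and 1379 CPM in CCL5-/- replicates 1 and 2, against 732 and 1767 CPM in WT replicates 1 and 2. Its order over the libraries was that of S100a4, S100a10, S100a1 and S100a13, with the highest level in WT replicate 2 and the lowest in WT replicate 1. S100a11 had another order, with its highest level in CCL5-/- replicate 2 and its lowest in CCL5-/- replicate 1.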
